A study of Mus musculus with 6 samples.

Results

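The Rhox genes (reproductive homeobox on the X chromosome) are a family of homeobox transcription factor genes, and 10 of them, chosen by name, are described: Rhox1, Rhox2a, Rhox4a, Rhox4b, Rhox5, Rhox6, Rhox9, Rhox10, Rhox11 and Rhox13. A member was taken to be measured where an array probe carried its name. That held for 8 of the 10 among 34650 gene names on the array, each through 1 probe printed as 1 spot, and 7 of these probes entered the test. RNA came from mouse embryonic stem cells lacking Tet1, Tet2 and Tet3 (TKO, 3 dishes) and from the wild-type BJ FF2 ES line from which they were derived (WT, 3 dishes). Both groups were kept in 2i medium on inactivated mouse embryonic feeder cells, moved to matrigel without feeders before collection, and grown at the same time. Each sample was 1 dish on 1 one-colour Agilent array, so replicate spread is the spread between dishes, within 1 WT line or within its TKO derivative. The labels do not say how many TKO clones were used, which exons were altered, or at which passage the cells were taken.

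Rhox genes lie side by side on the X chromosome and are named in their order along it. They are grouped by position into an alpha part (Rhox1 to Rhox4), a beta part (Rhox5 to Rhox9) and a gamma part (Rhox10 to Rhox13), and in mice the Rhox2, Rhox3 and Rhox4 genes were duplicated many times in tandem. Most are expressed in testis, ovary, epididymis or placenta, and in other tissues many are held silent with methylated promoters. Tet enzymes oxidise the methyl group of 5-methylcytosine, which in mammals sits mostly on a C followed by a G (CpG).

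Probe sequences decided which copy of a duplicated gene was read, so those the results turn on are shown first, as the scanner files give them on mouse build mm9. The probe named Rhox4a (A_55_P2000399, chrX:34809907-34809966, plus strand) and a probe named Rhox4g (A_55_P1975667, chrX:35061172-35061231, minus strand) differed at 2 of 60 positions, which are in capitals.
Rhox4a: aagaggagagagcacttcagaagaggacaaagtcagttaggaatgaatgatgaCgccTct
Rhox4g: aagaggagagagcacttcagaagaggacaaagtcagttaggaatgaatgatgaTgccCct
The probes of the strongest rise and the strongest fall among the members were the following, Rhox9 (A_51_P346132, chrX:35254147-35254206, minus strand) first. The Rhox13 probe (A_51_P474029, chrX:35474985-35476295, plus strand) covered 1311 bases of genome with its 60 bases, so it maps in more than 1 block.
Rhox9: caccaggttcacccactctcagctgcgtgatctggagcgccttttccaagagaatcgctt
Rhox13: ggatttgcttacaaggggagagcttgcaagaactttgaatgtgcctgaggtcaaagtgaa
No probe was named Rhox2a or Rhox4b. The Rhox4g probe above lists the RefSeq transcript of Rhox4b, and the probes named Rhox2c and Rhox2h (A_55_P2111756 and A_55_P1984344) list that of Rhox2a, so these genes were read only together with their copies. The files do not say whether a probe lies in coding sequence or in a UTR.

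Between 51.9% and 58.5% of non-control spots were well above background, the arrays' 75th percentiles of processed signal were 366.7 to 414.2 intensity units, and 0 spots were saturated. Levels are log2 signals minus that percentile of the same array, so that 0 is the percentile itself, and they cannot be set against each other between probes. Differences are TKO minus WT, with the standard error of limma, and a probe was called at a Benjamini-Hochberg adjusted p under 0.05 over 30734 probes. The brightest tested probes of Tet1 and Tet2 read 38.6% and 13.1% of their WT level in TKO dishes (limma, adjusted p = 9.71e-06 and 2.79e-06). That of Tet3 read 84.6% (adjusted p = 0.0845). A Tet probe tests the genotype only if it lies in the deleted exons, which the labels do not name. TKO replicates 2 and 3 lay in another array row of the slide than the other 4 arrays. They had the lowest shares of spots well above background (51.9% and 52.2%), the most outlier spots (160 and 150, against 100 to 104) and the widest spread of negative controls (SD of 13.05 and 7.06 intensity units, against 0.83 to 3.92). The part of this in the differences was not tested beyond the fits by array row.

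The direction of change differed along the cluster. Among the members, Rhox4a, Rhox5, Rhox6 and Rhox9 were higher in TKO cells, and Rhox10 and Rhox13, at the far end of the cluster, were much lower. Rhox1, its first gene, was lower by a small amount. Of the 7 tested members, 4 were called higher and 3 lower. In the same comparison 57.1% of all kept probes were called, 28.7% higher and 28.4% lower, so calls as such were common. At least 2-fold calls held for 5 of the 7 members, against 14.1% of all kept probes. For 7 of 7 members the 3 TKO values did not overlap the 3 WT values, against 65.7%. The members were chosen with earlier results of these data known, so these shares do not test whether the family stands out. Among 10 other kept Rhox-named probes, 3 were called at least 2-fold and 8 did not overlap. Those 3 were the Rhox4e and Rhox4g probes, which may read the same RNA as Rhox4a, and a repeat probe of Rhox8. All 7 member probes were well above background on all 6 arrays, so none entered the test through a single group.

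**Figure D1:**
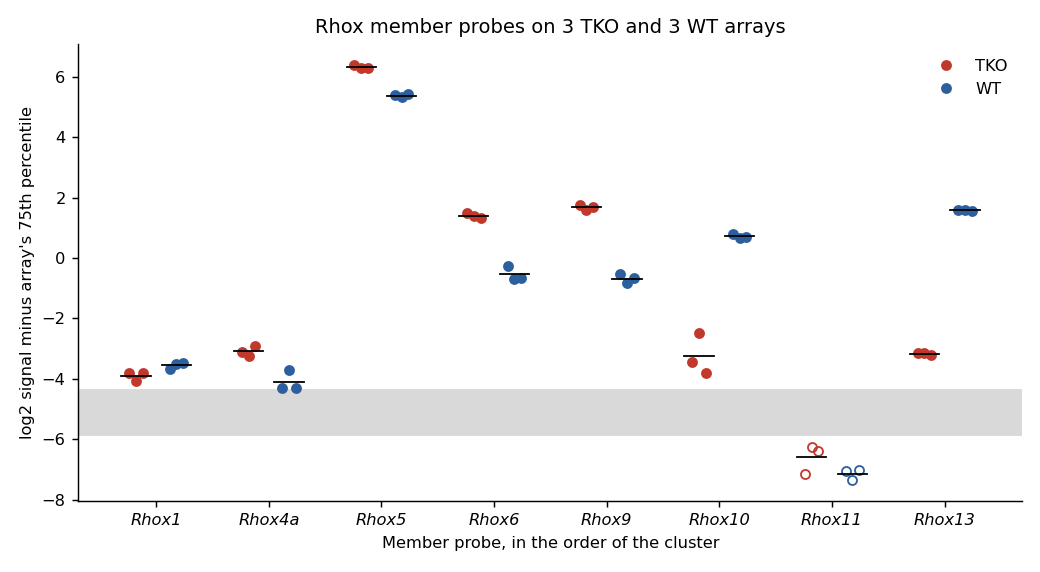
Log2 signal minus the 75th percentile of the array (y axis) for each of the 8 member probes (x axis, cluster order) on 3 TKO and 3 WT arrays. Points are dishes, black bars are group means, open points were not well above background, and the grey band spans the lowest level called well above background over the 6 arrays (-5.87 to -4.37). Rhox10 and Rhox13 sit far lower in TKO, Rhox6 and Rhox9 clearly higher, and Rhox11 lies under the band in both groups.

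Rhox13, a gene of germ cells in the fetal gonad and the testis, showed the deepest fall of the family. Its levels were -3.13, -3.14 and -3.22 in TKO dishes, against 1.59, 1.58 and 1.56 in WT dishes. The values within each group lay close together and the groups were 4.69 apart at their nearest points. The difference was -4.74 ± 0.042 (SE, n = 3 per group; limma, adjusted p = 1.11e-06), which left 3.75% of the WT signal, a 26.7-fold fall. With normexp background correction and an offset of 50 intensity units, which by itself shrinks differences of dim probes, it was -3.53. By size it ranked first among 1200 kept chromosome X probes and number 85 among all 30734. The TKO signal was still well above background on 3 of 3 arrays.

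Rhox10, which in mice takes part in setting up the spermatogonial stem cell pool, fell as well. TKO dishes read -3.44, -2.48 and -3.82, and WT dishes read 0.79, 0.65 and 0.70. The TKO dishes scattered widely, with replicate 2 the highest, and all 3 were below every WT dish. The mean level was -3.25 ± 0.690 in TKO and 0.71 ± 0.071 in WT (SD, n = 3 each), a difference of -3.96 ± 0.342 (SE; limma, adjusted p = 0.000274) or 15.5-fold. Without TKO replicate 2 the difference was -4.34, and with normexp -2.69. By size Rhox10 ranked number 6 among the chromosome X probes. Its probe (A_66_P138201, chrX:35424740-35424799, plus strand) lay 170.5 kb beyond that of Rhox9.

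Between these lay Rhox11, known from the fetal gonad and Sertoli cells, whose probe (A_52_P372303) started 5.1 kb after that of Rhox10. It read -7.15, -6.26 and -6.39 in TKO dishes, against -7.05, -7.35 and -7.01 in WT dishes, and was well above background on 0 of 6 arrays. No level or difference can be given for it. The probe named Rhox12, next in the cluster, was not well above background on any array either, so the falls of Rhox10 and Rhox13 were the whole of what was measured at this end.

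Rhox9 and Rhox6, first described as the placental homeobox genes Psx2 and Psx1, were the strongest rises of the family. Rhox9 had levels of 1.76, 1.60 and 1.69 in TKO dishes, against -0.54, -0.83 and -0.67 in WT dishes. Each TKO dish exceeded the highest WT dish by over 2 log2 units, the nearest values being 2.14 apart. The rise was 2.37 ± 0.088 (SE; limma, adjusted p = 1.54e-05), or 5.15-fold.

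Rhox6, whose probe (A_51_P487048, chrX:35182945-35183004, plus strand) lay 71.1 kb before that of Rhox9, gave 1.49, 1.38 and 1.34 in TKO dishes, against -0.25, -0.70 and -0.67 in WT dishes. WT replicate 1 was the highest of its group, and still 1.59 below the lowest TKO dish. The difference was 1.94 ± 0.133 (SE; limma, adjusted p = 0.000113), or 3.84-fold. The rises of Rhox6 and Rhox9 were not tested against each other.

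Because Rhox6 and Rhox9 are genes of the placenta, trophoblast and other cell markers were read beside them, each gene by its brightest probe. Calls were common, since 28.7% of all kept probes were called higher and 28.4% lower, and the counts below stand beside these shares. Of 8 trophoblast markers, 6 were tested, 5 of them called higher and 1, Eomes, lower. Their summed linear level, in units of the 75th percentile, was 11.4 to 12.5 in TKO dishes and 7.09 to 7.5 in WT dishes. Ascl2 made up most of that sum, at 976% to 1090% of the percentile in TKO and 610% to 645% in WT. Gata3 rose by 2.98 ± 0.099 (SE; limma, adjusted p = 1.09e-05). Cdx2 and Hand1 were well above background on 3 of 3 TKO arrays and 0 of 3 WT arrays. They passed the filter only through the TKO arrays, so their calls, counted among the 5, are no support for a rise. A floored WT mean was made, in which each array's lowest level that counted as detected replaced any lower value. Their TKO means were 3.61-fold and 4.65-fold above it. This is no strict minimum, since a probe that is not detected can read above that lowest level. Hand1 read -4.86 on WT replicate 1, where the lowest detected level was -5.87. Tpbpa was not well above background on any array. Summed germ cell markers were 22.9 to 24.9 in TKO and 15.8 to 17.6 in WT (2 of 8 called higher, 3 lower), and most of that gain was Stra8, at 1590% to 1720% of the 75th percentile in TKO and 803% to 955% in WT. Feeder fibroblast markers summed to 27.4 to 30.7 in TKO dishes and 22.0 to 22.6 in WT dishes (6 of 8 tested called higher, 1 lower; Lum not well above background on any array). Primitive endoderm markers summed to 1.57 to 1.74 in TKO and 1.44 to 1.57 in WT (3 of 8 called higher, 2 lower). All 8 embryonic stem cell markers were well above background on every array, with a summed level of 349 to 355 in TKO and 602 to 624 in WT (6 lower, 0 higher). Most of that drop was Zfp42, which fell 16.8-fold (limma, adjusted p = 1.43e-06). Tdgf1 fell 2.08-fold, and the falls of Nanog, Sox2, Pou5f1 and Esrrb were 1.24-fold to 1.4-fold. The part of these cells in the Rhox differences was not tested, and in bulk RNA more cells of a type and more RNA per cell cannot be told apart.

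Rhox5, the founding member, first named Pem, is known from embryonic stem cells, extraembryonic tissue, Sertoli cells and the epididymis. Its probe (A_51_P376445) is unmapped in the files, and in the RefSeq gene table of assembly GRCm38.p6 the gene precedes Rhox6. It read 6.40, 6.30 and 6.28 in TKO dishes, against 5.38, 5.33 and 5.42 in WT dishes. Replicates were within 0.12 of each other in TKO and within 0.09 in WT, and the groups were 0.86 apart. The rise was 0.95 ± 0.051 (SE; limma, adjusted p = 4.78e-05), or 1.93-fold, in a gene that was bright in both groups.

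The Rhox4 genes, one of which (Rhox4b, or Ehox) is known from differentiating embryonic stem cells, were dim and higher in TKO. The Rhox4a probe read -3.10, -3.25 and -2.91 in TKO dishes and -4.32, -3.71 and -4.31 in WT dishes. WT replicate 2 stood above the other WT dishes, and 0.46 separated it from the lowest TKO dish. The difference was 1.03 ± 0.193 (SE; limma, adjusted p = 0.00589), or 2.04-fold.

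With normexp background correction and its offset, which shrinks differences of dim probes, the Rhox4a difference was 0.37 and still called. On the first array row alone, where TKO replicate 1 is the only TKO array, it was 1.02 and not called (adjusted p = 0.0662). The Rhox4g probe that matches Rhox4a at all but 2 positions and lists Rhox4b rose by 1.40 ± 0.093 (SE; adjusted p = 9.92e-05). A probe named Rhox4e, of another sequence that is a tandem repeat over much of its length but also lists a Rhox4a transcript, rose by 1.39 ± 0.181 (SE; adjusted p = 0.00137). These 3 probes may read the same RNA molecules and are not independent of each other. A second probe named Rhox4g was not well above background on any array.

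Rhox2a, read only with its copies, went the other way. The Rhox2c-named probe gave -1.70, -1.63 and -1.68 in TKO dishes and -0.98, -1.14 and -1.06 in WT dishes, a difference of -0.61 ± 0.055 (SE; limma, adjusted p = 0.000319). The Rhox2h-named probe that also lists Rhox2a gave -1.09, -1.03 and -0.97 in TKO dishes and -0.44, -0.32 and -0.43 in WT dishes, a difference of -0.64 ± 0.055 (SE; adjusted p = 0.000283). Both probes read lower in every TKO dish than in any WT dish. Probes named Rhox2e and Rhox2f fell by 0.44 and 0.46, and a second Rhox2h probe differed by -0.45 without passing (adjusted p = 0.0791). The Rhox2 and Rhox4 copies alternate along the cluster in the RefSeq order, so the opposite differences came from probes lying among each other.

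Rhox1, the first gene of the cluster, was dim. It read -3.80, -4.07 and -3.81 in TKO dishes, against -3.66, -3.50 and -3.49 in WT dishes, and the groups were 0.14 apart. The difference of -0.34 ± 0.094 (SE; limma, adjusted p = 0.0238) passed the test narrowly. It no longer passed without WT replicate 2 or WT replicate 3 (adjusted p = 0.0759 and 0.076), on the first array row (-0.25, adjusted p = 0.121) or without a filter on dim probes (adjusted p = 0.0655). With the median or quantiles as the scale it was -0.54, and with normexp -0.17. Its probe (A_66_P100228, chrX:34753955-34754014, minus strand) marks the near end of the 722.3 kb between the outermost member probes.

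Rhox5, Rhox6, Rhox9, Rhox10 and Rhox13 were called under each of the 21 alternatives run, Rhox4a under 19 and Rhox1 under 14.

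**Figure D2:**
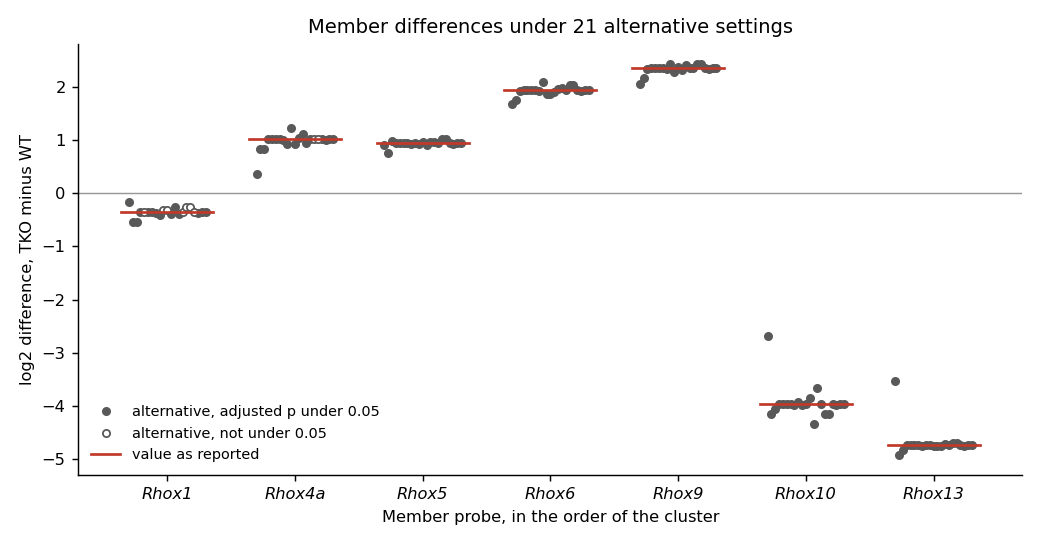
Log2 difference, TKO minus WT (y axis), of each tested member probe (x axis, cluster order) as reported (line) and under 21 alternative settings (points, open where the adjusted p was not under 0.05). Differences kept their sign throughout, which only changes of scale or background correction could have altered. Open points occur for Rhox1 (7) and Rhox4a (2).

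**Figure D3:**
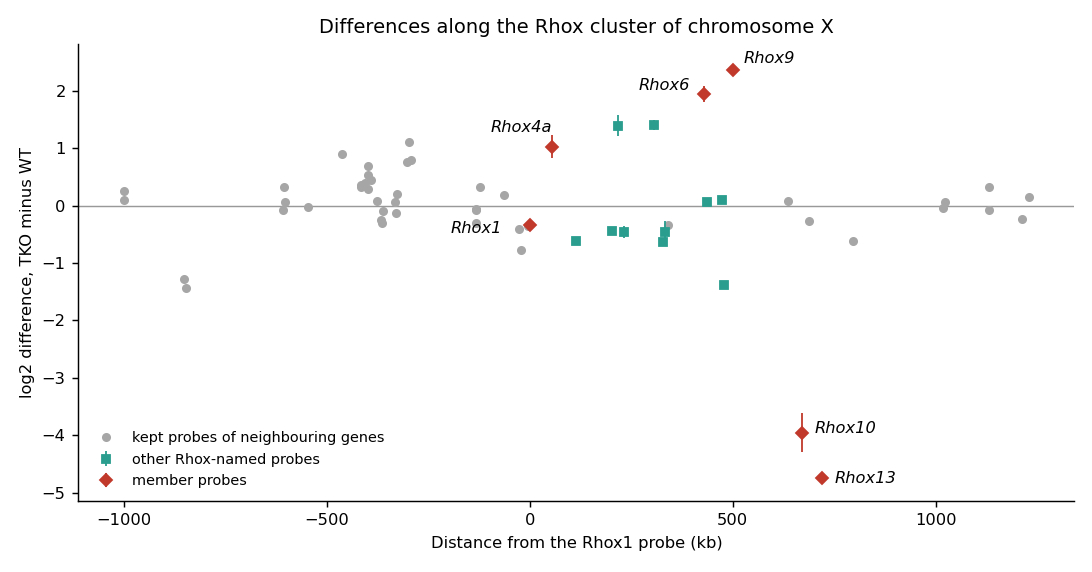
Log2 difference, TKO minus WT (y axis), against distance from the Rhox1 probe in kb (x axis) for the 6 mapped and tested member probes (diamonds), 10 other kept Rhox-named probes (squares) and 44 kept probes of other genes up to 1 Mb away (circles). Bars are standard errors of member and Rhox probes. Rhox10 and Rhox13 lie far below, and Rhox6 and Rhox9 above, every probe of the flanking genes.

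None of the flanking genes moved as far as the leading members. Of 44 kept probes within 1 Mb that carry no Rhox name, 13 were called higher and 11 lower, with a median of 0.07, and 3 changed at least 2-fold. All 1200 kept chromosome X probes had a median of 0.03, with 371 higher and 299 lower, and the median of all kept probes was -0.01. On the Rhox1 side, the nearest kept gene, Gm9, 4.5 kb away, fell by 0.36 ± 0.103 (SE), and Rnf113a1 fell by 0.77 ± 0.043 (SE). Farther off on the same side, both probes of Lonrf3 fell, by 1.29 and 1.44, while AI451458 rose 2.14-fold, Slc25a43 rose by 0.90 ± 0.148 and Sept6 by 0.79 ± 0.040 (SE).

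Beyond Rhox13, the nearest kept gene was Zbtb33, encoding the methyl-CpG binding protein Kaiso, 73.6 kb away, which fell by 0.61 ± 0.063 (SE; limma, adjusted p = 0.00052). Differences of Rhox6, Rhox9, Rhox10 and Rhox13 were larger in size than any of the 44. The 3 kept probes without a Rhox name that lie inside the cluster were not called.

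Other Rhox-named probes complete the picture of the cluster. The 14 gene names that are not members had 20 probes, of which 10 were kept. Of these, 2 were called higher and 5 lower, against 28.7% and 28.4% of all kept probes. The 2 higher were the Rhox4e and Rhox4g probes above, and the 5 lower include the Rhox8 repeat probe below. Rhox3 probes gave almost no signal, since 0 of 7 were well above background on the 3 arrays that the test asks for. Rhox7 had 1 kept probe, at 0.07 ± 0.065 (SE; limma, adjusted p = 0.412).

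Rhox8, known as a Sertoli cell gene, had 2 kept probes that disagreed. One (A_55_P2130725) read -1.49, -1.67 and -1.63 in TKO dishes and -1.77, -1.64 and -1.65 in WT dishes, which overlap. The other (A_55_P1981829) read 4.23, 4.18 and 4.11 in TKO dishes and 5.55, 5.56 and 5.58 in WT dishes, a fall of 1.39 ± 0.046 (SE; limma, adjusted p = 1.05e-05). This second probe is mostly a GAA-type repeat. Of 34 probes on the array with at least 8 such triplets in a row, whatever their gene name, 34 were kept and 34 called lower, with a median of -1.37. The Rhox8 value therefore stood at the middle of probes that share the repeat and not the gene.

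**Figure D4:**
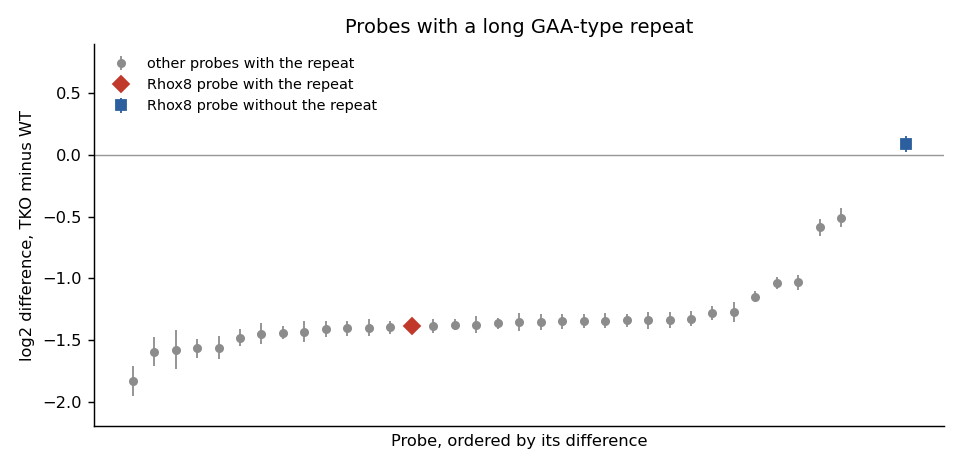
Log2 difference, TKO minus WT, with its standard error (y axis), for the 34 probes that hold at least 8 GAA-type triplets in a row, ordered by value (circles, with the Rhox8 probe as a diamond), and for the Rhox8 probe without the repeat (square). The repeat probes span -1.83 to -0.51 with Rhox8 among them, and the square lies at 0.09.

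Promoters of the 2 genes that fell most and of Rhox5, which rose, are shown for the CpG sites on which Tet enzymes act. Each is 250 bases before to 50 after the transcription start, from RefSeq on build GRCm38.p6, plus strand, 5′ to 3′, with every CG in capitals, at chrX:38120590-38120889 (Rhox13), chrX:38066225-38066524 (Rhox10) and chrX:37754358-37754657 (Rhox5).
Rhox13: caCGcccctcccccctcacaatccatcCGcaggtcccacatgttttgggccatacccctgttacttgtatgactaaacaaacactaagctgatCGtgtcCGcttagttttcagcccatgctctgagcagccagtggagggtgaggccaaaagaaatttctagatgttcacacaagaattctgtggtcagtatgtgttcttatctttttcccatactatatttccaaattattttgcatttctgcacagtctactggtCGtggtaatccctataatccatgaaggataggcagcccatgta
Rhox10: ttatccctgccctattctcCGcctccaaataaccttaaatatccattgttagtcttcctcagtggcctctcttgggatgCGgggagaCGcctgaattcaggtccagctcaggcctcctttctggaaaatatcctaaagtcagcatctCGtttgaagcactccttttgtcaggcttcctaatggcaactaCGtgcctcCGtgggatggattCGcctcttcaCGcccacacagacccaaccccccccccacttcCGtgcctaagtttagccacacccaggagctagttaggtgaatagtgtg
Rhox5: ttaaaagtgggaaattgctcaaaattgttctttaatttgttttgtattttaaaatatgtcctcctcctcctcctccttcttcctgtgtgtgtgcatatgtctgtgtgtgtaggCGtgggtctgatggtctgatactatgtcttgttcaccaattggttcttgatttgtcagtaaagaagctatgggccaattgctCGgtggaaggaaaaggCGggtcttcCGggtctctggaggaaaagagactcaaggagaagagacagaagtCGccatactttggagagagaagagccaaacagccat
The Rhox13 window held 5 CG, that of Rhox10 held 9 and that of Rhox5 held 5, against a median of 7 over 32851 windows of all genes. Rhox windows were available for 28 genes, 8 of them members, with 0 to 12 CG and a median of 7. Among members, Rhox1 had 0, Rhox11 7, Rhox2a 8, Rhox4b 10 and Rhox4a 12. No window of Rhox6 or Rhox9, the strongest rises, was among those available. Both strands were searched for motifs. The E-box motif CACGTG, read by the Myc and Max family, occurred in 5 of the 28 Rhox windows and in 7.2% of all windows. All 5 were duplicated Rhox4 copies, among the members Rhox4b. The Rhox4a window begins inside the bases that match the motif in these copies, so it cannot show whether Rhox4a carries it. The E2F-type motif GCGGGA occurred in 1 of 28 Rhox windows (0 of 8 members) and in 20% of all. Each of these motifs contains a CG, and they can overlap only at an end base. The arrays hold no measure of methylation at these sites.

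Genes studied as regulators of Rhox loci were read from lists of 34 genes, each by its brightest tested probe. With 1 brightest probe per gene name over the whole array, 6414 of 21562 were called higher and 6454 lower. Of 32 tested, 12 were called higher and 13 lower, a share of 78.1% called against 57.1% of all kept probes, with a median of -0.09. Among the 10 genes of DNA methylation, both de novo methyltransferase genes rose, Dnmt3b by 1.48 ± 0.060 and Dnmt3a by 1.45 ± 0.039 (SE; limma, adjusted p = 2.01e-05 and 6.3e-06). Among genes of the methyl-CpG binding domain family, Mbd1 rose by 0.48 and Mbd3 by 0.25, while Mbd2 fell by 0.41. The cofactor gene Dnmt3l fell by 0.24. Dnmt1 (-0.08), its partner Uhrf1 (-0.08) and the glycosylase gene Tdg (-0.10) did not pass (adjusted p = 0.215, 0.221 and 0.0742).

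Linker histones, whose loss in mouse stem cells alters Rhox5 expression, were lower or not called. H1f0 fell by 1.82 ± 0.145, Hist1h1e by 0.93 ± 0.123 and Hist1h1b by 0.60 ± 0.062 (SE), 4 of the 6 tested genes were lower and 0 higher. Of the 10 genes of histone methylation and silencing, 5 were higher and 4 lower. Suz12, a subunit of the Polycomb complex PRC2, rose by 1.04 ± 0.049, Pcgf6 by 0.48 ± 0.049 and E2f6 by 0.30 ± 0.041, while Ezh2, the catalytic subunit of PRC2, fell by 0.40 ± 0.059, Kdm1a by 0.25 ± 0.036 and Eed by 0.20 ± 0.039 (SE).

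Transcription factor genes of this kind numbered 6 tested, 2 higher and 3 lower. Elf1 rose by 0.52 and Gata1 by 0.35. Ets2 fell by 0.77, Gata4 by 0.20 and Gabpa by 0.19. Ins2, the 1 tested of 2 genes known as testis targets of Rhox5, differed by -0.09 ± 0.143 (SE; limma, adjusted p = 0.638).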

How the data were processed

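RNA of 3 TKO and 3 WT dishes was read on 6 one-colour (Cy3) Agilent arrays and quantified, per the submitters' processing notes, with Agilent Feature Extraction 11.5.1.1. The processed signal, mean signal and local background are intensity values on a linear scale per the file headers, with the processed signal background-subtracted and detrended within the array but not scaled between arrays, and positions are on mm9. The deposited spot flags are another unit (0 or 1). The authors' deposited table of processed values gives log2 values whose scale and centring are not given in the sources used here. Against the scanner files each column was log2 processed signal shifted by a constant (100% of probes within 0.02), with medians of -3.9, -3.74 and -3.82 for TKO arrays and -3.97, -3.97 and -4.03 for WT arrays.

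Control and outlier spots were left out, spots of a probe averaged, and each array's 75th percentile over non-control spots subtracted from log2 signals. Of 55681 probes, the 30734 well above background on at least 3 of 6 arrays were tested with limma 3.58.1 (lmFit and eBayes, R 4.3.3, two-sided) and adjusted by Benjamini-Hochberg. The fit was also run on simulated data, whose outcome is not reported here and lends no support to the values. All arrays shared 1 slide and 1 scan. The 6 arrays limit the precision of every value, and p-values measure only the spread between dishes. Replicate numbers did not pair the dishes.

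Members, gene lists, marker lists, alternatives and the naming rule (all members, up to 3 called rises and 3 falls of every other list, all DNA methylation genes except 1 that is not reported here, the nearest neighbours) were chosen with earlier results of these data known. The repeat search was made after the values were seen. Promoters are RefSeq sequences of GRCm38.p6, matched by symbol.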

Additional observations from a re-analysis of the deposited data

How the results depend on the processing

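The 7 member differences kept their sign under all 21 alternatives, but most of these could not have changed it. Other filters, variance models, probe choices and the replicate block leave a difference as it is. Leaving out a dish, or using the array row, cannot reverse groups that do not overlap. Only changes of scale or background correction could have changed a sign. Rhox5, Rhox6, Rhox9, Rhox10 and Rhox13 stayed past the threshold in all 21. Their ranges were 0.76 to 1.02, 1.69 to 2.09, 2.05 to 2.44, -4.34 to -2.69 and -4.93 to -3.53. The values of -2.69, -3.53, 1.69 and 2.05 came from normexp with an offset of 50 intensity units. The part of the offset and that of the background correction were not separated. Rhox4a (0.37 to 1.23) lost its call with the array row as a block (adjusted p = 0.052) and on the first row alone (0.0662). Rhox1 (-0.54 to -0.17) lost it in 7 of 21, among them the array row as a block (adjusted p = 0.191), an intensity trend with robust eBayes (0.11) and those in the report. With the replicate number as a block, 4 members were called higher and 2 lower, Rhox1 being lost (adjusted p = 0.0628). Same-numbered dishes had correlated deviations of only -0.06, -0.008 and 0.002, so the samples share only a number.

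Scaling to the array median moved the median of all kept probes to -0.20. It left 5404 probes higher and 12545 lower, against 8809 and 8739, 6 neighbours higher and 18 lower, and 7 regulators higher and 19 lower, against 12 and 13. The first row alone left 7 neighbours lower. The 75th percentile over probes was an alternative chosen after seeing the data. Dim probes (Rhox1 and Rhox4a in both groups, Rhox10 and Rhox13 in TKO) are limited by their signal over background.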

Other observations

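Other homeobox genes of the reproductive tract, placenta and oocyte were mostly too dim to test, with 4 of 12 kept. Of these, each read by its brightest tested probe, 3 were called higher and 0 lower, against 28.7% and 28.4% of all kept probes. Esx1, an X-linked placental homeobox gene outside the Rhox cluster (probe at chrX:133649965-133650024, mm9), read 2.20, 2.05 and 1.97 in TKO dishes and -0.95, -0.98 and -1.02 in WT dishes. The rise of 3.06 ± 0.067 (SE; limma, adjusted p = 3.93e-06) was 8.31-fold and the groups did not overlap. Obox6, an oocyte and early embryo gene, read 1.63, 1.65 and 1.67 in TKO dishes and -0.66, -0.55 and -0.76 in WT dishes, a rise of 2.31 ± 0.063 (SE; adjusted p = 6.52e-06). Nobox, needed for oocyte growth, was detected on 3 of 3 TKO arrays and 0 of 3 WT arrays. It passed the filter only through the TKO arrays, so its call, counted among the 3, is no support for a rise. Its TKO mean was 5.84-fold above a WT mean floored as for Cdx2 and Hand1, which is no strict minimum either. Tgif2lx1, an X-linked testis homeobox gene, differed by -0.04 ± 0.116 (SE; adjusted p = 0.789).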
